A study of Mus musculus with 19 samples.

Results

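The comparison set the 8 arrays of medulloblastoma-type cerebellar tumors against the 3 arrays of CD133+, Lin- cerebellar cells that were measured under the same run number. These 11 arrays were chosen by title (NEP Tumor, GNP Tumor and NSC) out of 19 in the series. The tumor value of a gene was the mean of the 2 tumor group means, so that each tumor group weighed the same, and a gene was reported as changed only where it also held in each tumor group on its own. Genes on the X and Y chromosomes were left out.

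All mice were C57BL/6, and all RNA came from cells taken straight from the cerebellum, which were neither cultured nor treated between isolation and RNA extraction. The NEP tumor group (n = 4 arrays) came from Nestin-CreERT2/Ptch1C/C animals, in whose tumors a tamoxifen-inducible Cre under Nestin control acts on conditional Ptch1 alleles. The GNP tumor group (n = 4) came from Math1-CreERT2/Ptch1C/C animals, where the same kind of Cre is under the control of Math1, another name of Atoh1. The CD133+ Lin- group (n = 3, titled NSC) held progenitors sorted for CD133, the product of Prom1, and lacking the Lin markers, which the labels do not list; no allele or agent is given for them. Ages, sexes, pooling and the agent and time of Cre induction are not given for any of the groups used here, and nothing states that arrays of a group came from separate animals, so p-values measure only the spread between these arrays.

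Ptch1 encodes the receptor that holds the Sonic hedgehog (SHH) pathway off: when SHH binds it, or when it is lost, Smoothened is released and the Gli transcription factors switch on targets such as Gli1, Ptch1 itself and Hhip. In the cerebellum SHH from Purkinje cells drives the division of granule neuron progenitors, which carry the transcription factor Atoh1, and loss of Ptch1 gives medulloblastoma. CD133+ cells of the postnatal cerebellum have been used as a source of neural stem cells, which can form glia and GABAergic interneurons.

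Values are array signals on a log2 scale, on which a difference of 1 is a change by a factor of 2. A gene was represented by its brightest probe set and tested where that probe set reached its array's median in at least 3 of the 11 arrays. The median array signal was near 2.5, and a group whose mean lies below it is called dim: a fold against it is a fold of array signal and no measure of RNA. Differences are tumors minus CD133+ Lin- cells, with the standard error (SE) of the limma fit, and a gene is called at a Benjamini-Hochberg adjusted p below 0.05 over all 11608 genes tested.

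The groups stood far apart. Of 11182 autosomal genes tested, 3454 were higher (30.9%) and 3283 lower (29.4%) in the tumors, and of these 2337 (20.9%) were higher and 2296 (20.5%) lower in each tumor group. At a size of at least 2-fold in each tumor group, 408 were higher and 639 lower. All 8 tumor arrays lay above all 3 CD133+ Lin- arrays for 2391 genes (21.4%) and below them for 2385 (21.3%). The median difference over all genes was 0.01. The deposited arrays share the same mean over all probe sets (largest difference 2.26e-07). A median near 0 was therefore set in large part by the normalization and shows no common centre of the changes in RNA. Counts of list members below are to be read against these shares of all genes, 20.9% higher and 20.5% lower in each tumor group. A member that was dim on one side could pass the filter only through arrays where it was bright, so that its difference was fixed in part by the filter. Both tumor groups were compared with the same 3 arrays, and a deviation shared by those 3 arrays would enter both comparisons.

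Among the technical measures, tumor and CD133+ Lin- arrays correlated less (r 0.939 to 0.948) than arrays of 1 group (0.983 to 0.998), over all autosomal genes. Between the tumor groups r was 0.978 to 0.984, which overlapped the range within groups. NEP tumor array 3 gave 0.984 and 0.983 with NEP tumor arrays 1 and 2. The array numbers in the titles run in blocks by group, so that group and position in the run cannot be told apart. The 3′ minus 5′ signal of the beta-actin control, a measure of RNA integrity and labelling, was 0.65 ± 0.01 (SD, n = 3) in CD133+ Lin- arrays, between 0.48 ± 0.06 (n = 4) in NEP tumor arrays and 0.84 ± 0.02 (n = 4) in GNP tumor arrays. Sex-linked genes differed by group: Xist read 10.64 to 10.72 in CD133+ Lin- arrays, 10.04 to 10.60 in NEP tumor arrays and 2.51 to 3.24 in GNP tumor arrays, while the Y-linked Eif2s3y read 4.55 to 4.88, 1.23 to 1.66 and 7.47 to 7.64. Xist and Eif2s3y were thus both present in the CD133+ Lin- arrays, Xist alone in NEP tumors and Eif2s3y mainly in GNP tumors, and the part of sex in the autosomal results was not tested. In bulk RNA, fewer cells of a type and less RNA per cell cannot be told apart.

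The marker genes were compared first. Gli1, the transcription factor used as a readout of SHH signalling, read 7.60, 8.21 and 8.14 in the CD133+ Lin- arrays, 8.87, 9.03, 8.53 and 8.77 in the NEP tumor arrays and 8.21, 8.54, 8.52 and 8.61 in the GNP tumor arrays. The NEP tumor arrays all lay above the CD133+ Lin- arrays, while the lowest GNP tumor array met the highest CD133+ Lin- array. The difference was 0.65 ± 0.14 (SE; limma adjusted p = 0.00186), with 0.82 in NEP tumors and 0.49 in GNP tumors. The call in GNP tumors depended on single arrays: its limma adjusted p was 0.021 with all 11 arrays, 0.11 without the first CD133+ Lin- array, 0.053 without GNP tumor array 4 and 0.16 with all 19 arrays of the series.

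Ptch1 read 10.24 to 10.29 in the CD133+ Lin- arrays, 11.39 to 11.59 in the NEP tumor arrays and 11.18 to 11.24 in the GNP tumor arrays, with no overlap. Its difference was 1.07 ± 0.06 (SE; limma adjusted p = 2.47e-08), and its other 2 probe sets differed by 0.76 and 0.79. The targeted gene was thus higher, not lower, on the array in both tumor groups. Where its probes lie relative to the deleted part is not given, so these values check no deletion.

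Atoh1 read 8.92 to 8.94 in the CD133+ Lin- arrays, 10.31 to 10.67 in the NEP tumor arrays and 9.38 to 9.45 in the GNP tumor arrays. The tumors driven from Math1 control thus had the lower Atoh1 signal of the 2 tumor groups, by 1.05 ± 0.08 (SE; limma adjusted p of the difference between tumor groups = 3e-06). Atoh1 was higher than in CD133+ Lin- cells by 1.54 in NEP tumors and 0.50 in GNP tumors. With all 19 arrays in the fit, whose other groups vary more, the calls were lost in the mean of both tumor groups (limma adjusted p = 0.074) and in GNP tumors (0.45). The call in NEP tumors was kept (limma adjusted p = 0.022).

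Cdkn2a, which encodes the cell cycle inhibitor p16INK4a and the Mdm2 inhibitor p19ARF, rose most of the 3 markers. It read 1.64, 2.05 and 2.03 in the CD133+ Lin- arrays, all dim, against 6.65, 7.10, 4.89 and 6.11 in the NEP tumor arrays and 6.77, 6.58, 6.63 and 6.76 in the GNP tumor arrays. The difference was 4.53 ± 0.34 (SE; limma adjusted p = 3.56e-07). No tumor array came near the CD133+ Lin- level, and NEP tumor array 3 was the lowest of the 8.

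Of the genes behind the names of the cell populations, Prom1 fell and Nes, the intermediate filament Nestin, did not. Prom1 read 7.95 to 8.17 in the CD133+ Lin- arrays, 6.76 to 7.03 in NEP tumor arrays and 5.66 to 6.07 in GNP tumor arrays, a fall of 1.72 ± 0.09 on the log2 scale (SE; limma adjusted p = 2.25e-08). The CD133+ Lin- cells were sorted for the product of Prom1. The direction of its difference was therefore set in part by the sort and is no separate result. Nes read 4.34 to 4.56, 5.17 to 6.84 and 5.12 to 5.38, a difference of 1.27 ± 0.28 (SE; limma adjusted p = 0.002). The call for Nes in GNP tumors was weak, with a limma adjusted p of 0.047 that passed the threshold no longer when any of the 3 CD133+ Lin- arrays, any of the 4 GNP tumor arrays or NEP tumor array 4 was left out (0.058 to 0.13), or when genes were not filtered (0.052).

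**Figure D1:**
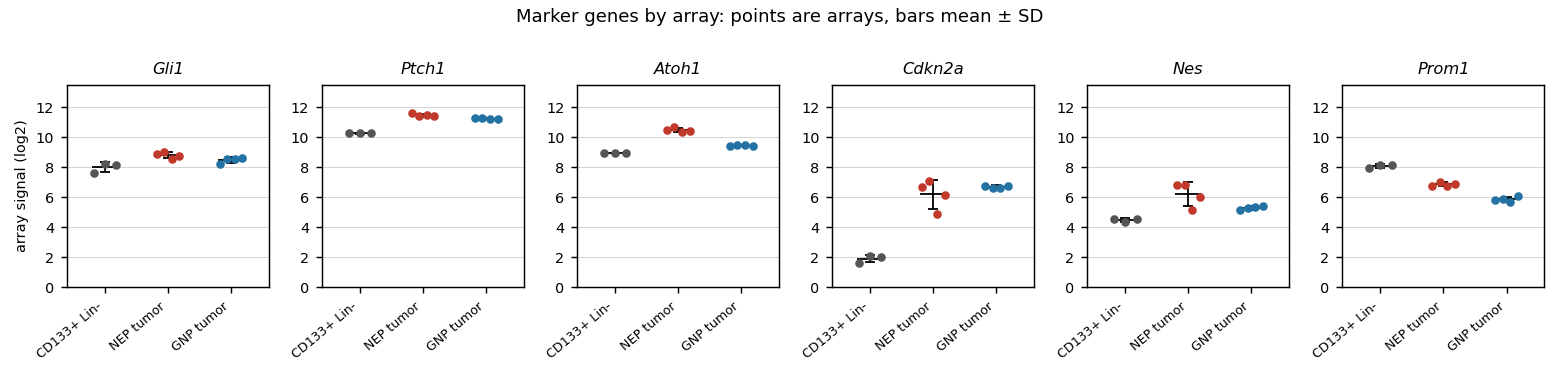
Array signal (log2) of 6 marker genes in each of the 11 arrays; points are arrays, and bars give the mean and SD of the 3 CD133+ Lin- arrays, the 4 NEP tumor arrays and the 4 GNP tumor arrays. Cdkn2a separates all 8 tumor arrays (4.89 and above) from the CD133+ Lin- arrays (2.05 and below), and the lowest GNP tumor array of Gli1 meets the CD133+ Lin- arrays. Prom1, for whose product the CD133+ Lin- cells were sorted, is lower in all tumor arrays.

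The CD133+ Lin- arrays did not hold the RNA of neural stem cells alone. Beside Prom1, Fabp7 (10.91) and Sox2 (8.68), genes of radial glia and neural stem cells, they held the granule lineage factor Atoh1 (8.93), the GABAergic factor Ptf1a (7.74), the fibroblast collagen Col1a2 (9.60) and the endothelial junction gene Cldn5 (8.86), each a group mean. They are therefore called CD133+ Lin- cells here and not stem cells. Every difference below is a difference from that mixture.

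Genes of the SHH pathway were found on both sides. Of 20 members tested (21 on the array), 6 were higher (30%) and 5 lower (25%) in each tumor group, near the 20.9% and 20.5% of all genes, and the median difference was 0.12, against 0.01 over all genes. Besides Gli1 and Ptch1, the higher members included Bmi1, a Polycomb component, with 9.68 to 9.93 in CD133+ Lin- arrays, 10.59 to 10.82 in NEP tumor arrays and 10.45 to 10.52 in GNP tumor arrays, and a difference of 0.80 ± 0.07 (SE; limma adjusted p = 1.68e-06). Hhip, a membrane protein that binds SHH and is itself a target, was higher by 1.80 in NEP tumors and by 0.52 in GNP tumors, and the 2 tumor groups differed by 1.28 ± 0.18 (SE; limma adjusted p = 0.0003). The call of Hhip in GNP tumors (limma adjusted p = 0.040) was lost on leaving out the first or second CD133+ Lin- array or GNP tumor array 2, 3 or 4 (0.070 to 0.16), and with its probe sets averaged (0.37).

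Gli3 and Igf2 fell by more than any member of the list rose. Gli3, the Gli factor that acts mainly as a repressor, read 6.57 to 6.86 in the CD133+ Lin- arrays and 2.66 to 3.36 over the 8 tumor arrays, a fall of 3.76 ± 0.10 on the log2 scale (SE; limma adjusted p = 5.4e-11). Its other probe sets fell by 3.16 and by 0.30. Igf2, a growth factor induced by SHH in granule progenitors, read 10.27, 10.49 and 10.45 in CD133+ Lin- arrays, 4.96, 4.75, 5.91 and 5.56 in NEP tumor arrays and 6.59, 6.82, 6.82 and 6.65 in GNP tumor arrays. The fall of Igf2 was 4.39 ± 0.20 on the log2 scale (SE; limma adjusted p = 4.27e-09), or 21.0-fold, while its other probe set fell by 0.93. Igf2 is also strongly expressed by meningeal and vascular cells, whose markers moved the same way in these arrays (see the stromal genes), and their part in its fall was not tested.

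The GLI binding motif GACCACCCA, searched on both strands, was present in 83 of 32851 RefSeq promoter windows of 300 bases (0.253%; 250 bases before to 50 after a start, build GRCm38.p6). Of the 6 SHH list genes higher in each tumor group, 3 had a window (Ptch1, Hhip and Bmi1), and 0 of them held the motif there.

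Of 17 granule lineage genes tested (19 on the array), 5 were higher (29.4%) and 7 lower (41.2%) in each tumor group, against 20.9% and 20.5% of all genes, with a median of 0.02 that changed sign with the choice of probe set and with single arrays. Higher were Atoh1, Nhlh1 (a factor of newborn granule neurons) by 1.07 ± 0.12 (SE; limma adjusted p = 9.26e-06) and Cxcr4 (the chemokine receptor that holds progenitors in the outer layer) by 1.00 ± 0.10 (SE; limma adjusted p = 3.29e-06). Pax6, a factor of the whole granule lineage, read 10.26 to 10.40 in CD133+ Lin- arrays, 9.02 to 9.52 in NEP tumor arrays and 8.30 to 8.38 in GNP tumor arrays. It fell by 1.54 ± 0.10 on the log2 scale (SE; limma adjusted p = 1.17e-07), and its other 4 probe sets differed by -1.91 to -0.07. Eya1, a transcriptional co-activator, fell by 2.90 and the homeobox gene Tlx3 by 1.19.

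Of 20 neuronal differentiation genes tested (23 on the array), 8 were higher (40%) and 6 lower (30%) in each tumor group, against 20.9% and 20.5% of all genes, with a median of 0.18. Gabra6 and Cbln3, markers of mature granule neurons, were higher by 1.66 and 1.36 from a dim level in the CD133+ Lin- arrays. Their tumor means stayed low, at 3.44 and 3.58 in NEP tumors and 2.74 and 2.87 in GNP tumors, against an array median near 2.5. The other probe set of each rose by 0.24 and 0.19 only. Tubb3, a neuronal tubulin, was higher by 1.12 ± 0.14 (SE; limma adjusted p = 3.5e-05). With all 19 arrays Tubb3 was no longer called (limma adjusted p = 0.088). The neurofilament gene Nefl fell by 2.47, the differentiation factor Neurod2 by 2.09 and the synaptic vesicle protein gene Syt1 by 1.83 on the log2 scale.

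Of 22 stem cell and radial glia genes tested, 14 were lower (63.6%, against 20.5% of all genes) and 3 higher in each tumor group, and the median difference was -1.01. Ednrb, the endothelin receptor of radial glia, read 7.98 to 8.21 in the CD133+ Lin- arrays, 3.89 to 4.79 in NEP tumor arrays and 4.04 to 4.69 in GNP tumor arrays, a fall of 3.67 ± 0.17 on the log2 scale (SE; limma adjusted p = 7.04e-09). Tenascin C (Tnc), a matrix protein, fell by 2.81 and Id4, an inhibitor of differentiation factors, by 2.63. Sox1, a SoxB1 factor of neural progenitors, went the other way: it read 7.11 to 7.50, 9.02 to 9.69 and 8.95 to 9.15, a rise of 1.91 ± 0.12 (SE; limma adjusted p = 1.04e-07).

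Of 22 Notch pathway genes tested (24 on the array), 13 were lower (59.1%, against 20.5% of all genes), 3 higher and the others not called in each tumor group, with a median of -0.41 that was -0.22 when the probe sets of a gene were averaged. The receptor gene Notch1 read 6.84 to 6.94 in CD133+ Lin- arrays, 4.06 to 4.26 in NEP tumor arrays and 4.28 to 4.84 in GNP tumor arrays, a fall of 2.53 ± 0.10 on the log2 scale (SE; limma adjusted p = 1.36e-09). The receptor gene Notch3, which is also expressed by vascular mural cells, fell by 1.88, and the effector gene Hes5 by 1.37. Among the ligands Dll1 fell by 1.09, Jag1 rose by 0.47 and Dll4 rose by 0.49 from a dim level. The call of Jag1 in GNP tumors (limma adjusted p = 0.031) was lost on leaving out any of the 3 CD133+ Lin- arrays or GNP tumor array 1 or 3 (0.062 to 0.092).

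Of 18 BMP pathway and Id genes tested (24 on the array), 11 were lower (61.1%, against 20.5% of all genes) and 1 higher, with a median of -0.36. Of the 18, 2 were dim in both tumor groups. The BMP antagonist Chordin (Chrd) fell by 2.66 ± 0.09 on the log2 scale (SE; limma adjusted p = 2.9e-10) and the receptor gene Bmpr1b by 2.19.

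Of 24 Wnt modulators and targets tested (32 on the array), 8 were higher and 8 lower (33.3% each, against 20.9% and 20.5% of all genes), with a median of -0.00 that changed sign under several alternatives. Of the 24, 3 were dim in CD133+ Lin- cells but not in both tumor groups, 1 in both tumor groups alone and 1 in all. The filter thus set these shares in part. The secreted ligand gene Wnt5a read 6.10 to 6.38 in the CD133+ Lin- arrays and 2.02 to 2.74 over the tumor arrays, where both group means were dim, a fall of 3.83. Sp5, a direct Wnt target, fell by 3.24 on the log2 scale, while Wnt4 rose by 2.70 ± 0.19 (SE; limma adjusted p = 2.52e-07) and the receptor gene Fzd7 by 1.23.

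Glial and GABAergic markers gave single genes of large size in both directions. Among 19 astrocyte and Bergmann glia genes tested, 7 were lower (36.8%) and 4 higher (21.1%), against 20.5% and 20.9% of all genes, with a median of -0.32 that was 0.084 with the filter at the 75th percentile: Gja1 (connexin 43) fell by 2.97 and Gjb6 (connexin 30) by 2.22 (with all 19 arrays its limma adjusted p in GNP tumors was 0.053), while Gfap rose by 1.53 and S100b by 4.12. S100b read 4.23, 4.07 and 3.77 in CD133+ Lin- arrays, 8.45, 8.24, 9.20 and 8.85 in NEP tumor arrays and 7.66, 7.57, 7.69 and 7.52 in GNP tumor arrays. It thus rose while most of the astrocyte genes called fell. Olig2, a factor of oligodendrocyte precursors that SHH tumors also express, rose from 4.61 to 4.76 in CD133+ Lin- arrays to 7.65 to 7.96 in NEP tumor arrays and 6.69 to 6.92 in GNP tumor arrays (difference 2.63 ± 0.08, SE; limma adjusted p = 1.33e-10). More of the oligodendrocyte genes called in each tumor group fell (3) than rose (2, Olig2 among them).

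Ptf1a, which specifies the GABAergic neurons of the cerebellum, fell to a dim level in every tumor array. It read 7.80, 7.61 and 7.83 in the CD133+ Lin- arrays and 1.76 to 2.21 over all 8 tumor arrays, all dim, a fall of 5.81 ± 0.10 on the log2 scale (SE; limma adjusted p = 1.86e-12). Tfap2b, which acts with Ptf1a in that lineage, fell by 4.16 and Lhx5 by 1.58. On the list of 11 GABAergic and Purkinje genes tested, 3 were lower and 3 higher (27.3% each, against 20.5% and 20.9% of all genes). Its median was -0.23, or 0.036 without the third CD133+ Lin- array. The 3 lower members, Ptf1a, Tfap2b and Lhx5, were dim in both tumor groups. They passed the filter only through the CD133+ Lin- arrays, and their count is no result about the list. Pvalb rose by 1.49 and Foxp2, a Purkinje cell factor, by 1.40.

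Most stromal and vascular genes tested were lower in the tumors. Of 19 pericyte, fibroblast and meningeal genes, 13 were lower (68.4%, against 20.5% of all genes), 1 was higher, 2 (Kcnj8 and Abcc9) lay on opposite sides in the tumor groups and the others were not called (median -2.69). Of 18 endothelial genes 16 were lower (88.9%) and 1 higher (median -1.53). Both tumor means were dim for 4 of the former and 3 of the latter. The collagen gene Col1a2 read 9.58 to 9.62 in CD133+ Lin- arrays, 3.79 to 4.45 in NEP tumor arrays and 4.67 to 5.15 in GNP tumor arrays, a fall of 5.10 ± 0.14 on the log2 scale (SE; limma adjusted p = 5.36e-11). Lum (lumican) fell by 4.70 and Col1a1 by 4.47.

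Among the endothelial genes Cldn5 read 8.81 to 8.90 in CD133+ Lin- arrays, 5.40, 5.44, 7.24 and 6.85 in NEP tumor arrays and 5.70 to 6.19 in GNP tumor arrays. NEP tumor arrays 3 and 4 therefore held more of it than the other 6 tumor arrays, as they did of the receptor gene Tek (3.77 and 2.90 against 1.76 to 2.11). The receptor gene Kdr fell by 3.06. Sox18, a factor of endothelial cells, was the exception: it read 6.93 to 7.30 in CD133+ Lin- arrays, 10.18 to 10.36 in NEP tumor arrays and 9.77 to 9.93 in GNP tumor arrays, a rise of 2.90 ± 0.08 (SE; limma adjusted p = 5.4e-11).

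The array medians of the stromal list ran from 5.79 to 6.37 in CD133+ Lin- cells, 4.25 to 4.79 in NEP tumors and 4.46 to 4.71 in GNP tumors, and those of the endothelial list from 5.42 to 5.66, 3.17 to 4.03 and 3.12 to 3.40. No Lin marker is named in the labels, so whether the sort aimed at these cells is not known. Genes named here that fibroblasts, meninges or vessels also express, among them Igf2, Notch3, Wnt5a and Ednrb, moved with these markers, and the markers' part in those falls was not tested.

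**Figure D2:**
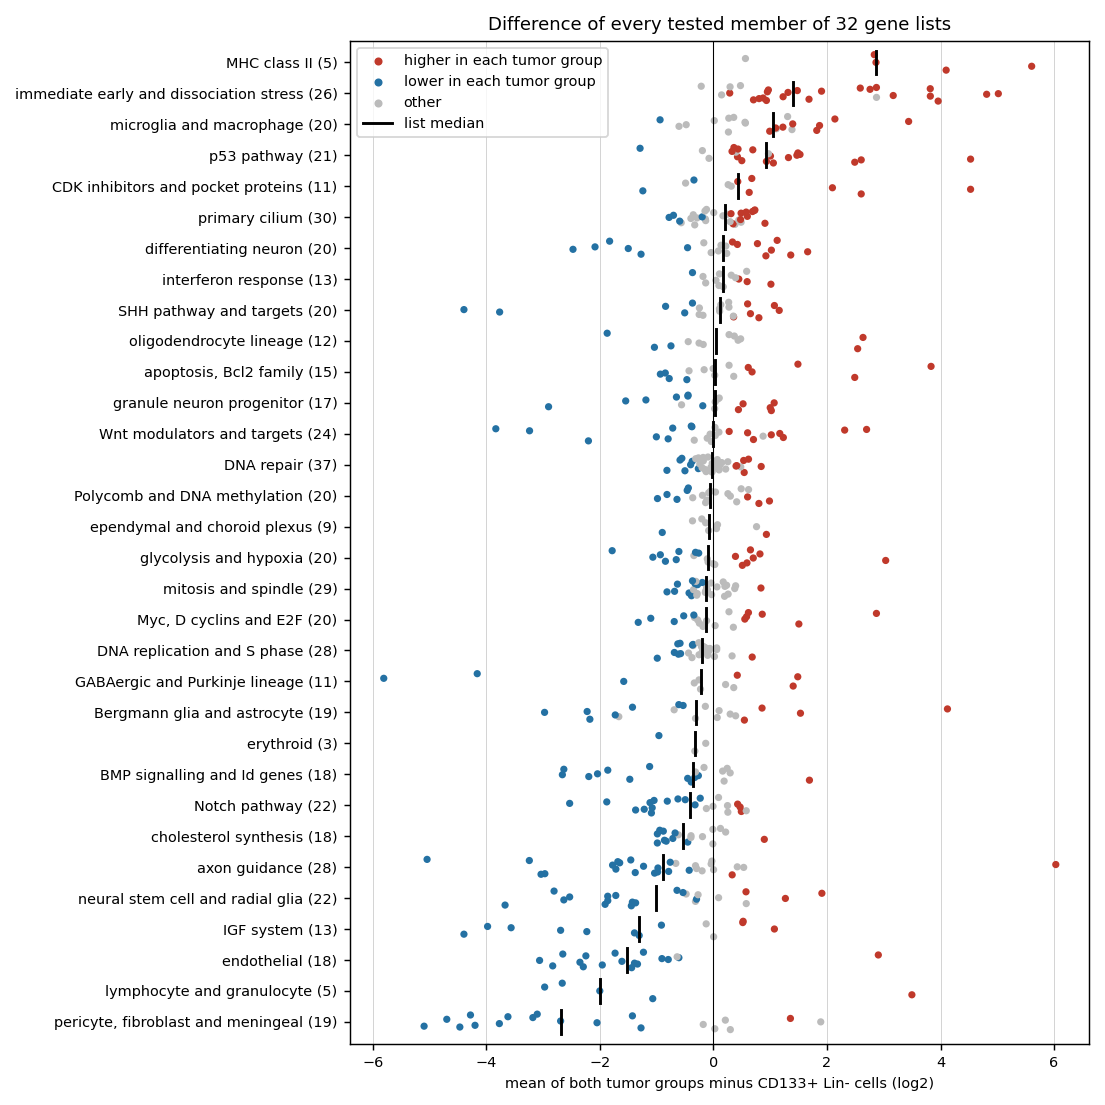
Difference between the mean of both tumor groups and the CD133+ Lin- cells (log2, horizontal axis) for every tested member of 32 gene lists, ordered by median (black bars); the number tested follows each name. Red members were higher and blue ones lower in each tumor group, and grey ones passed in neither sense. MHC class II (median 2.86, over members that passed the filter through the tumor arrays) and stress genes (1.40) lie highest, and pericyte, fibroblast and meningeal genes (-2.69) lowest.

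Most p53 pathway genes tested were higher in the tumors. Of 21 members (25 on the array) 16 were higher (76.2%) and 1 lower in each tumor group, against 20.9% and 20.5% of all genes, with a median of 0.93. Cdkn1a, the gene of the cell cycle inhibitor p21 and a direct p53 target, read 4.32, 4.46 and 4.77 in the CD133+ Lin- arrays, 6.85 to 7.26 in NEP tumor arrays and 7.13 to 7.29 in GNP tumor arrays. Its rise was 2.60 ± 0.10 (SE; limma adjusted p = 1.33e-09), or 6.08-fold. The pro-apoptotic target Bbc3 (Puma) read 3.54 to 3.89, 5.79 to 5.92 and 6.52 to 6.73, a rise of 2.49 ± 0.08 (SE; limma adjusted p = 2.07e-10). The exception was Trp73, the p53 family member, which fell by 1.29 to a dim level. Cdkn1a and other members also belong to stress responses, and the stress genes described below moved with them in the same arrays (array medians 5.53 to 5.68 in CD133+ Lin- cells and 8.07 to 8.90 in tumors); their part in the p53 result was not tested.

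Of 11 CDK inhibitors and pocket protein genes, 6 were higher (54.5%) and 2 lower (18.2%) in each tumor group, against 20.9% and 20.5% of all genes (median 0.43). Cdkn2b (p15INK4b), the neighbour of Cdkn2a, rose by 2.10 ± 0.09 (SE; limma adjusted p = 3.23e-09), from 2.48 to 2.76 in CD133+ Lin- arrays to 4.38 to 4.71 in NEP tumor arrays and 4.79 to 5.03 in GNP tumor arrays. Cdkn1c (p57) fell by 1.24. Rbl1 (p107) fell by 0.34, with other probe sets at -0.98 to 0.11, and with NEP tumor arrays 1 and 2 alone for their group its limma adjusted p in NEP tumors was 0.061. Among 15 genes of the Bcl2 family 5 were higher (33.3%) and 4 lower (26.7%): Hrk, a pro-apoptotic BH3-only gene of neurons, rose by 3.83 ± 0.15 (SE; limma adjusted p = 1.17e-09), and Bcl2l11 (Bim), another BH3-only gene, fell by 0.93.

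More of the proliferation genes called were lower than higher in the tumors, by small amounts. Of 28 replication genes 8 were lower and 1 higher in each tumor group (median -0.20), and of 29 mitosis genes 9 were lower and 1 higher (median -0.14). The shares lower were 28.6% and 31.0%, against 20.5% of all genes, and the shares higher 3.57% and 3.45%, against 20.9%. Ccne1 (cyclin E1) fell by 0.99 ± 0.07 on the log2 scale (SE; limma adjusted p = 1.72e-07) and the mitotic phosphatase gene Cdc25b by 0.82. Mki67, named after its values were seen because it is a common marker of division, read 11.25 in CD133+ Lin- cells, 10.88 in NEP tumors and 11.05 in GNP tumors as group means, so that all groups carried it at a high array signal. The separate list of 20 Myc, D cyclin and E2F genes was mixed. In each tumor group 6 were higher (30%) and 5 lower (25%), near the 20.9% and 20.5% of all genes (median -0.14). On that list E2f2 fell by 1.32 and E2f7, a repressor of the cycle, by 1.10, while Mxi1 rose by 0.86.

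Myc and Cdk6 went up. Myc read 4.17 to 4.22 in CD133+ Lin- arrays, 6.66 to 7.24 in NEP tumor arrays and 6.97 to 7.27 in GNP tumor arrays, a rise of 2.87 ± 0.11 (SE; limma adjusted p = 8.6e-10). Cdk6, the kinase partner of D cyclins, rose by 1.57 in NEP tumors and 1.44 in GNP tumors (limma adjusted p = 5.98e-09 for the mean), and its other 2 probe sets rose by 1.52 and 3.05. Myc is on the stress list as well as the growth list.

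Of 26 immediate early and stress genes tested, 21 were higher in each tumor group (80.8%, against 20.9% of all genes), with a median of 1.40. Of the 26, 2 were dim in CD133+ Lin- cells. The array medians of the list ran from 5.53 to 5.68 in CD133+ Lin- cells, 8.07 to 8.90 in NEP tumors and 8.79 to 8.86 in GNP tumors. Many of these genes respond within minutes to handling of cells, and the labels do not describe how cells were freed from tissue or for how long; the part of handling was not tested. Atf3, a stress-induced factor, read 3.43, 3.41 and 3.05 in CD133+ Lin- arrays, 7.13, 7.15, 5.55 and 6.32 in NEP tumor arrays and 7.90, 8.02, 8.03 and 7.94 in GNP tumor arrays. NEP tumor array 3 was the lowest of the tumor arrays for Atf3, as for Cdkn2a.

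The largest rises on that list were the heat shock genes Hspa1b and Hspa1a, which encode the inducible HSP70 chaperones. Hspa1b read 4.20, 4.49 and 4.39 in CD133+ Lin- arrays, 10.23, 9.77, 8.01 and 9.38 in NEP tumor arrays and 9.38, 9.43, 9.51 and 9.32 in GNP tumor arrays, a rise of 5.02 ± 0.34 (SE; limma adjusted p = 1.32e-07), or 32.4-fold. Hspa1a rose by 4.81 ± 0.49 (SE; limma adjusted p = 5.04e-06) from a dim mean of 2.46 in CD133+ Lin- cells. These genes are near-identical neighbours, so their probe sets may each read both, and which of them rose is uncertain. Their promoters are shown with a motif of the kind that heat shock factors bind. The 250 bases before the start, taken from RefSeq (GRCm38.p6, minus strand, chr17:34972157-34972406 for Hspa1a and chr17:34959239-34959488 for Hspa1b), are printed 5′ to 3′ with the heat shock motif GAANNTTC in capitals.
Hspa1a: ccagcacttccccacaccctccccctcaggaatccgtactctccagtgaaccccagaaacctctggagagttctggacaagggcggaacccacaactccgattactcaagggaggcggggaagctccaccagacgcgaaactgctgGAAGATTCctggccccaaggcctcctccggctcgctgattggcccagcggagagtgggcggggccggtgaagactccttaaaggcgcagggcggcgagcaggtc
Hspa1b: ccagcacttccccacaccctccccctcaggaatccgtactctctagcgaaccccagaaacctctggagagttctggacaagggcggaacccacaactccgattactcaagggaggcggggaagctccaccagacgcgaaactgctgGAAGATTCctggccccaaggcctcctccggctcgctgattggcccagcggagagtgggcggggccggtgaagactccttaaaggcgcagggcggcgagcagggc
The pair was identical at 247 of 250 bases (98.8%), and each holds 1 match, at base 147. The motif was chosen after the values were seen and searched on both strands, and 7.86% of the 32851 windows of 300 bases hold it. Among other heat shock genes of the stress list searched, Hsph1 held 1 match in each of its windows, and Dnajb1 held 0 in each. A match is a description of the letters and not of binding.

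Of 8 MHC class II genes on the array 5 were tested, and Cd74, H2-Aa, H2-Ab1 and H2-Eb1 were higher in each tumor group. As 4 of the 5 were dim in CD133+ Lin- cells, they passed the filter only through tumor arrays, and their count is no result about the list. H2-Aa, a class II chain, read 2.38, 2.11 and 2.08 in CD133+ Lin- arrays, all dim, 6.69, 7.04, 6.45 and 6.52 in NEP tumor arrays and 8.88, 8.88, 9.02 and 8.90 in GNP tumor arrays. Its rise was 5.60 ± 0.11 (SE; limma adjusted p = 7.38e-12), with 3.49 when its probe sets were averaged, and the NEP tumor level was lower than the GNP tumor level by 2.25 ± 0.12 (SE; limma adjusted p = 2e-07). Cd74, the invariant chain of class II, showed the same order: 2.70 to 2.77, 5.41 to 5.86 and 7.87 to 8.20.

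Of 20 microglia and macrophage genes tested (22 on the array), 8 were higher (40%, against 20.9% of all genes), 1 lower and 1 (Mrc1) on opposite sides in the tumor groups, and the others were not called in each (median 1.04). Of the 20, 5 were dim in CD133+ Lin- cells. The lysozyme gene Lyz2 read 4.00 to 4.75 in CD133+ Lin- arrays, 6.79 to 7.37 in NEP tumor arrays and 8.37 to 8.54 in GNP tumor arrays, a rise of 3.44 ± 0.15 (SE; limma adjusted p = 3.4e-09). The leukocyte gene Ptprc (CD45) rose by 2.14 from a dim level, while its other probe set differed by 0.0008. The protease gene Ctss rose by 1.87. P2ry12, a defining gene of resting microglia, was dim in the tumors and fell by 0.94. With all 19 arrays in the fit, the calls in NEP tumors were lost for Lyz2 (limma adjusted p = 0.053), Ptprc (0.22), Ctss (0.39) and P2ry12 (0.54), and those in GNP tumors for Ctss (0.076) and P2ry12 (0.39). The array medians of this list ran from 3.17 to 3.57 in CD133+ Lin- cells, 3.49 to 4.42 in NEP tumors and 4.73 to 5.12 in GNP tumors, and their part in the rise of MHC class II was not tested.

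Of 20 lymphocyte and granulocyte genes on the array only 5 were tested, all granulocyte genes. In each tumor group 4 were lower (80%) and 1 higher (20%), against 20.5% and 20.9% of all genes. Of the 5, 2 were dim in both tumor groups and 1, Lcn2, in CD133+ Lin- cells. The filter thus fixed their direction in part, and the counts are no result about the list. The median, the value of Ngp, was below 0 but was 0.26 with the filter at the 75th percentile. The neutrophil genes S100a8, S100a9 and Ngp fell by 2.97, by 2.66 and by 2.00 on the log2 scale, and S100a8 read 7.49, 7.48 and 6.58 in the CD133+ Lin- arrays. Lcn2, an iron-binding protein of neutrophils that other stressed cells also make, rose by 3.50 ± 0.25 (SE; limma adjusted p = 2.58e-07). The CD133+ Lin- arrays therefore carried signal of neutrophil genes although the cells are labelled Lin-.

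**Figure D3:**
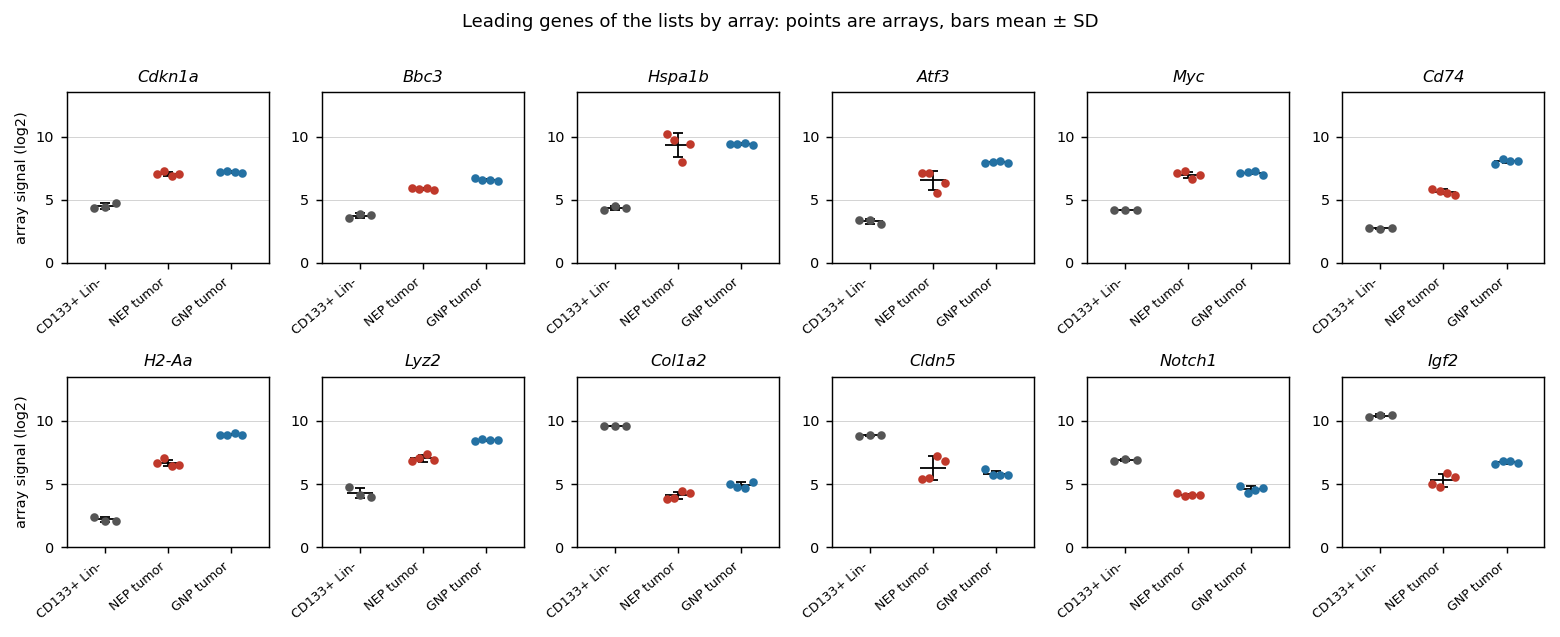
Array signal (log2) of 12 leading genes in each of the 11 arrays; points are arrays, and bars give mean and SD per group. Hspa1b, Cdkn1a, Bbc3, Atf3 and Myc are higher in all 8 tumor arrays, Cd74, H2-Aa and Lyz2 are highest in the GNP tumor arrays, and Col1a2, Cldn5, Notch1 and Igf2 are lower in all tumor arrays.

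Of 13 genes of the insulin-like growth factor system tested (15 on the array), 8 were lower (61.5%, against 20.5% of all genes) and 3 higher in each tumor group, with a median of -1.31. The binding protein gene Igfbp5 read 10.56 to 10.67 in CD133+ Lin- arrays, 6.63 to 6.90 in NEP tumor arrays and 6.41 to 6.73 in GNP tumor arrays, a fall of 3.98 ± 0.08 on the log2 scale (SE; limma adjusted p = 7.38e-12), although its other probe set fell by 0.49 only. Igfbp4 fell by 3.56. The signalling adaptors went up slightly, Irs1 and Irs2 by 0.52 each. Outside the list, Grb10, an imprinted adaptor that restrains insulin and IGF receptors, read 7.77 to 7.99 in CD133+ Lin- arrays and 2.52 to 2.95 over the tumor arrays, a fall of 5.13 ± 0.08 (SE; limma adjusted p = 9.42e-13), and its other 2 probe sets fell by 1.02 and by 0.54.

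Of 28 axon guidance genes tested (33 on the array), 17 were lower (60.7%, against 20.5% of all genes) and 2 higher (median -0.88, or -0.45 with probe sets averaged). Of the 28, 2 were dim in both tumor groups. The netrin receptor gene Unc5c read 8.17 as the mean of the CD133+ Lin- arrays, 2.96, 2.58, 4.63 and 4.18 in NEP tumor arrays and 2.32 to 2.91 in GNP tumor arrays, a fall of 5.04 ± 0.35 on the log2 scale (SE; limma adjusted p = 1.88e-07). Slit2, a repulsive ligand, fell by 3.24 (other probe sets -0.53 and -0.19) and Efna5, an ephrin ligand, by 3.04 (other probe set -0.01). Sema3e, a secreted semaphorin, went the other way: it read 2.46, 2.74 and 2.55 in the CD133+ Lin- arrays, 9.12, 8.89, 8.95 and 8.88 in NEP tumor arrays and 8.12, 8.37, 8.23 and 8.32 in GNP tumor arrays. Its rise was 6.03 ± 0.08 (SE; limma adjusted p = 8.36e-13), or 65.3-fold of array signal from a level at the array median, and its other 3 probe sets rose by 3.11 to 6.72.

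Metabolic lists were mixed. Of 20 glycolysis and hypoxia genes, 7 were higher (35%) and 8 lower (40%), against 20.9% and 20.5% of all genes (median -0.10), and Hk2, the inducible hexokinase, rose by 3.03 ± 0.11 (SE; limma adjusted p = 6.78e-10) from 6.60 to 7.07 in CD133+ Lin- arrays to 9.91 to 10.33 in NEP tumor arrays and 9.66 to 9.79 in GNP tumor arrays. The triose phosphate isomerase gene Tpi1 fell by 1.78. Of 18 cholesterol synthesis genes 9 were lower (50%, against 20.5% of all genes) and 1 higher (median -0.53). The falls were led by Dhcr7 and Mvk, each down by 0.99, and by Srebf2, the gene of their main transcriptional activator, down by 0.95. Of 30 primary cilium genes, needed for SHH signalling, 10 were higher (33.3%) and 4 lower (13.3%), against 20.9% and 20.5% of all genes, with a median of 0.21 that was -0.13 with the filter at the 75th percentile, led by the BBSome gene Bbs5, up by 0.91. Of 37 DNA repair genes 6 were higher and 7 lower (median -0.02), shares of 16.2% and 18.9% near those of all genes. Of 20 Polycomb and DNA methylation genes 3 were higher (15%) and 5 lower (25%), against 20.9% and 20.5% of all genes (median -0.07). The methyltransferase gene Dnmt3b was down by 0.99. Of the remaining lists, 3 of 13 interferon response genes were higher (23.1%) and 1 lower (7.69%; median 0.17). Of 12 oligodendrocyte genes 2 were higher (16.7%) and 3 lower (25%; median 0.05). Of 9 ependymal genes 1 was higher and 1 lower (11.1% each; median -0.08). The shares of all genes were 20.9% higher and 20.5% lower. Of 3 erythroid genes, 1 was lower (median -0.33).

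Over all autosomal genes, the 12 largest rises without overlap of arrays were Tmem163, Sema3e, H2-Aa, Cbln4, Olig3, Hspa1b, Hspa1a, Cdkn2a, Sowaha, S100b, Dusp5 and Cd74, from 6.12 down to 4.10. Tmem163, a zinc transporter, read 1.68, 2.01 and 2.06 in CD133+ Lin- arrays, all dim, and 7.89 to 8.29 over the 8 tumor arrays, a rise of 6.12 ± 0.10 (SE; limma adjusted p = 1.86e-12) that was alike in size in NEP tumors (6.16) and GNP tumors (6.08). Cbln4, a secreted synapse organiser, read 1.75 to 2.12, 6.77 to 7.66 and 7.09 to 7.41. Olig3, a factor of rhombic lip progenitors, read 2.47, 2.67 and 2.67 in CD133+ Lin- arrays, 7.11, 6.86, 7.51 and 7.33 in NEP tumor arrays and 8.41, 8.58, 8.57 and 8.47 in GNP tumor arrays. Olig3 was lower in NEP than in GNP tumors by 1.31 ± 0.12 (SE; limma adjusted p = 1.6e-05). Dusp5, a phosphatase of ERK, rose by 4.10, and Sowaha by 5.41 in NEP tumors and 3.35 in GNP tumors.

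The 12 largest falls were Mfap4, Ptf1a, Mtx2, Rps4l, Grb10, Col1a2, Unc5c, Aplnr, Col5a2, Tbx18, Lum and Gsto1, from -5.98 to -4.69. At least Mfap4, Col1a2, Col5a2, Tbx18 and Lum are known for expression in fibroblasts, meninges or mural cells, whose markers fell together. Mfap4, a microfibril protein, read 10.66, 10.81 and 10.68 in CD133+ Lin- arrays, 5.70, 5.57, 4.19 and 4.84 in NEP tumor arrays and 4.19 to 4.62 in GNP tumor arrays. Mtx2, a mitochondrial import gene expressed in most cells, read 8.15 to 8.20 in CD133+ Lin- arrays and 2.25 to 2.84 over the tumor arrays, a fall of 5.56 ± 0.11 (SE; limma adjusted p = 4.94e-12) on its only named probe set. Rps4l, a ribosomal protein S4-like gene, read 6.89 to 7.16 against 1.52 to 2.11, and Gsto1, a glutathione transferase, 7.84 to 7.98 against 2.51 to 3.70. Mtx2 and Rps4l signals thus went from well above the array median to near or below it in all 8 tumor arrays.

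The choice of probe set set the size of some of these differences. With all probe sets of a gene averaged, 19 of the genes given above were smaller by more than 1.5 times and were still called in each tumor group in the same direction. Among genes that fell, the averaged differences were -2.23 for Grb10, -2.66 for Igf2, -2.41 for Gli3, -2.23 for Igfbp5, -2.17 for Igfbp4, -2.25 for Wnt5a and -1.84 for Tnc. They were -1.52 for Efna5, -1.32 for Slit2, -1.29 for Eya1, -0.92 for Syt1, -0.82 for Trp73 and -0.80 for Bmpr1b. Among genes that rose they were 3.49 for H2-Aa, 2.44 for Hrk, 1.19 for Sox1, 1.07 for Ptprc, 0.77 for Cbln3 and 0.73 for Fzd7.

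The tumor groups did not always fall on the same side. NEP and GNP tumors differed from each other in 4026 of 11182 genes (36.0%; limma adjusted p below 0.05, either direction), and in 82 of the 177 genes named by the rules used here. Some of the 177 were named because they were called on opposite sides, so their count is not to be set beside the 36.0%. Of the autosomal genes tested, 61 were called higher than CD133+ Lin- cells in NEP tumors and lower in GNP tumors, and 40 the other way.

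Ak1, an adenylate kinase, read 4.45 to 4.54 in CD133+ Lin- arrays, 2.75 to 3.32 in NEP tumor arrays and 6.28 to 6.64 in GNP tumor arrays, so that the groups did not overlap, and the difference between tumor groups was -3.44 ± 0.13 (SE; limma adjusted p = 7.3e-09). The imprinted gene Zdbf2 read 4.10 to 4.29, 2.84 to 4.12 and 6.32 to 6.61, with NEP tumor array 3 inside the range of the CD133+ Lin- arrays. Insyn2a and Aldh1a2, which makes retinoic acid, followed the same order. In the opposite order stood the coagulation inhibitor gene Tfpi (4.72 to 5.09, 6.38 to 7.14 and 3.71 to 3.90), the secreted Wnt modulator Sfrp2 (8.22 to 8.24, 9.20 to 9.45 and 7.24 to 7.45) and Kcnj8, a potassium channel gene of pericytes (4.24 to 4.79, 5.39 to 6.21 and 3.43 to 3.78). Abcc9, the partner of Kcnj8 in that channel, moved in the same way, by 1.04 in NEP tumors and -0.44 in GNP tumors, while most other pericyte and fibroblast genes called were lower in both.

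**Figure D4:**
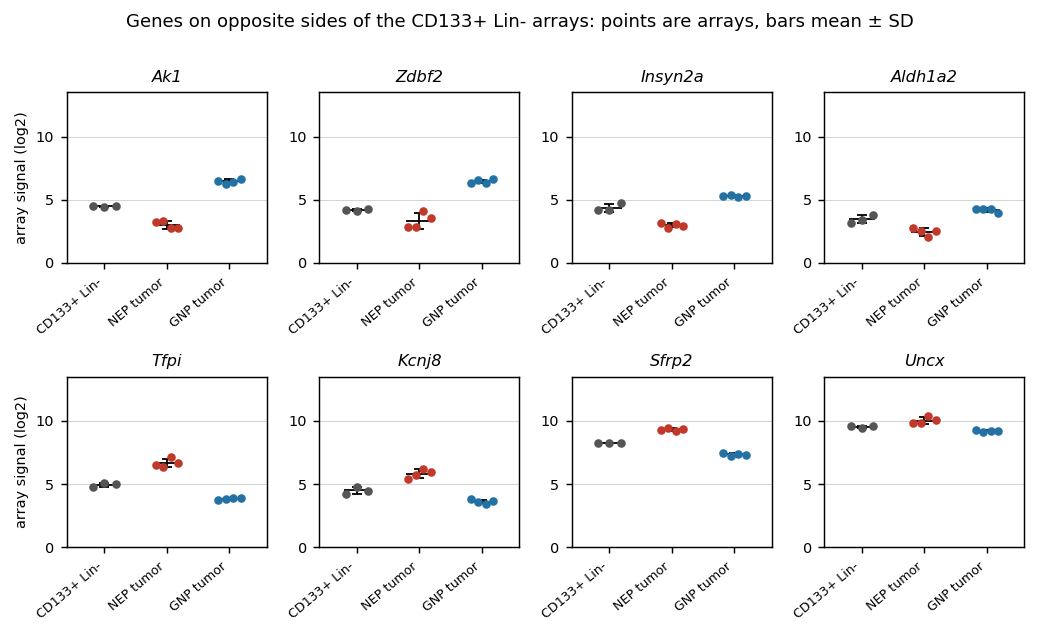
Array signal (log2) of 8 genes called on opposite sides of the CD133+ Lin- cells in the 2 tumor groups; points are arrays, and bars give mean and SD per group. Ak1, Zdbf2, Insyn2a and Aldh1a2 are lower in NEP tumors and higher in GNP tumors, and Tfpi, Kcnj8, Sfrp2 and Uncx the reverse.

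By position in the genome, chromosome 6 stood apart in both tumor groups and chromosome 8 mainly in NEP tumors. This was noticed after the values were seen and carries no test. Of 595 genes tested on chromosome 6, 36.8% were higher and 11.4% lower in each tumor group, and of 639 on chromosome 8, 23.3% were higher and 10.6% lower, against 19.8% and 21.7% on the other 17 autosomes. The share higher ran from 15.6% to 24.7% over those 17 autosomes, so that of chromosome 8 lay within their range. Its share lower lay below that of each of them (17.5% or more). The median difference of chromosome 6 genes was 0.44, 0.45, 0.10 and 0.27 in the 4 NEP tumor arrays and 0.19 to 0.24 in the GNP tumor arrays. That of chromosome 8 genes was 0.10, 0.14, 0.44 and 0.29 in the NEP tumor arrays and -0.00 to 0.05 in the GNP tumor arrays. NEP tumor arrays 1 and 2 were thus high on chromosome 6 and NEP tumor array 3 on chromosome 8, while the medians of the other 17 autosomes lay between -0.14 and 0.13 in every tumor array. Within that range lay the chromosome 8 medians of all GNP tumor arrays and of NEP tumor array 1, and the chromosome 6 median of NEP tumor array 3.

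The chromosome 6 median was above 0 in each of 4 stretches of its genes by position, from 0.24 to 0.34. Among genes with a mean signal of at least 7 in each group it was 0.25, with 39.5% higher and 5.96% lower. Without a filter on dim genes it was 0.10, and that of chromosome 8 was 0.082, against 0.14. With NEP tumor arrays 1 and 2 alone standing for their group, the chromosome 8 median was 0.075. Without the genes of both chromosomes, 1969 genes were higher and 2160 lower in each tumor group, a count added after seeing the data. Of the genes described above, Atoh1, Hk2, Foxp2, Kcnj8 and Abcc9 lie on chromosome 6, as do Col1a2, Tpi1 and Rps4l, which fell, and Sox1, Tubb3, Hhip and Irs2 on chromosome 8.

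**Figure D5:**
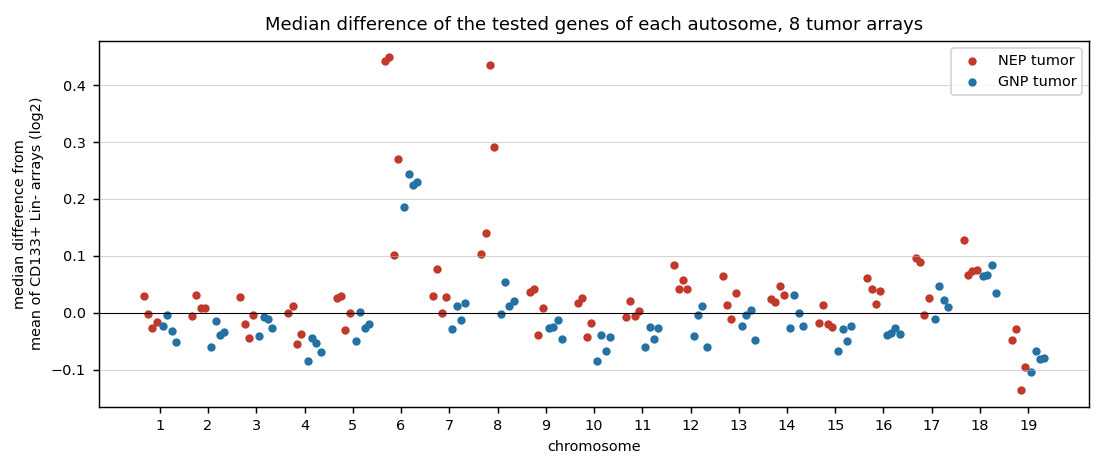
Median difference of the tested genes of each autosome from the mean of the 3 CD133+ Lin- arrays (log2, vertical axis) in each of the 8 tumor arrays, NEP tumors in red and GNP tumors in blue. Chromosome 6 lies above 0 in all 8 arrays, up to 0.45, and chromosome 8 in all 4 NEP tumor arrays, up to 0.44.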

How the data were processed

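Expression was measured on Affymetrix Mouse430+2 arrays, 1 per sample; the Ambion WT Expression Kit amplified 100 ng of RNA, per the labels' protocols. The authors deposited log2 signals per probe set. The submitters' processing notes name RMA and the Affymetrix Expression Console; versions are not given in the sources used here, and the base of 2 was checked on the hybridisation spike-ins. Of 45101 probe sets, 34945 carried 1 gene symbol, giving 18193 genes; 64 were controls, 932 carried several symbols and 9160 none. The probe set brightest on average over the 11 arrays stood for a gene, which was tested where it reached its array's median in at least 3 of them. The 11 arrays were fitted as 3 group means in R 4.3.3 with limma 3.58.1 (lmFit, eBayes; 8 residual degrees of freedom; two-sided). The number of arrays limits the precision. The fit was tested on simulated data. The other 8 arrays, of another run, entered only an alternative. Alternatives were other probe set rules, filters, normalizations and variance models, a replicate block, and arrays left out.

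The members and the 32 gene lists were chosen with earlier results of these data known; lists overlap and were not tested as sets. Named genes were the markers; the 12 largest rises and falls among genes called in each tumor group whose arrays do not overlap; up to 3 of each list in each direction; and genes called in opposite directions. Genes outside this rule (Mki67, Fabp7, Sox2 and Dll1) were chosen after their values were seen. Of the 2919 genes called in each tumor group that have more than 1 probe set, 219 (7.50%) have another probe set called the other way.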

Additional observations from a re-analysis of the deposited data

Results flagged for a closer look

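In groups of 4 arrays, 422 sets of values (177 named genes, 32 list medians and 2 chromosome medians in each tumor group) were searched for an array far from the others, and 17 were found; chance flags about 1 in 20 groups, or 21.1 here. In NEP tumors, array 2 stood apart for Gfap (5.84 against 5.32 to 5.40), Cdkn2b (4.71 against 4.38 to 4.41) and Pdk1 (2.68 against 2.46 to 2.47), and array 3 for Klf11 (5.17 against 5.86 to 6.00). In GNP tumors, array 1 stood apart for Cldn5 (6.19 against 5.70 to 5.73) and for the list medians of the SHH pathway (8.31 against 8.51 to 8.55), of Myc, D cyclins and E2F (7.30 against 7.53 to 7.56) and of the primary cilium (5.68 against 5.85 to 5.88). Array 2 did so for Gjb6 (3.68 against 3.19 to 3.21), E2f3 (6.89 against 7.06 to 7.08), Igfbp3 (5.57 against 5.21 to 5.25) and Insyn2a (5.38 against 5.26 to 5.27). Array 3 did so for H2-Aa (9.02 against 8.88 to 8.90) and Igfbp4 (4.62 against 4.15 to 4.16). Array 4 did so for Sox18 (9.93 against 9.77 to 9.79), Kdm6b (7.38 against 7.60 to 7.63) and Aldh1a2 (3.94 against 4.25 to 4.31).

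The tumor groups differed from each other, by limma at an adjusted p below 0.05, in 82 of the 177 named genes. Of these, 14 had been called in opposite directions against the CD133+ Lin- cells and were named for that, so their difference was fixed by the choice. The level in NEP tumors minus that in GNP tumors was 0.80 for Uncx, 2.20 for Kcnj8, 1.48 for Abcc9, 1.98 for Sfrp2, 0.63 for Inpp5e, 2.85 for Tfpi, 1.57 for Trim62 and 1.47 for Oxsm. It was -1.09 for Mrc1, -3.44 for Ak1, -2.31 for Insyn2a, -3.11 for Zdbf2, -1.72 for Aldh1a2 and -1.46 for Klf11.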

How the results depend on the processing

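The counts of genes called in the mean comparison (3454 higher, 3283 lower) and in each tumor group (2337 and 2296) stayed within 1.5 times under the alternatives run, other than these. With the filter at the 75th percentile, which leaves 7076 genes, the mean comparison called 2300 higher and 2087 lower, and each tumor group 1385 lower. With at least 2-fold asked for, the mean comparison gave 606 higher and 785 lower, and each tumor group 408 and 639. Leaving out 1 array gave 2967 to 3618 higher and 2836 to 3354 lower in the mean, and 1963 to 2449 higher and 1983 to 2363 lower in each tumor group. Same-numbered tumor arrays did not deviate together (correlations of -0.04 to 0.06), so the numbers pair nothing; with a replicate block 3438 and 3255 genes were called in the mean, and 2311 and 2276 in each tumor group. Of 4649 values of named genes, judged by the call of their own contrast, 4597 kept direction and call, 51 lost the call and 1 reversed: Dcc differed by -0.051 with probe sets averaged, from 0.33. Judged by the call in each tumor group, 101 of 3704 values of 163 genes lost it, in 32 genes; 62 of these, in 16 genes, came from leaving out 1 array and 20 from fitting all 19 arrays. The cause was not tested. Not every named gene was tested under the stricter filter or with probe sets averaged. List medians that changed sign under some alternative were those of the granule, oligodendrocyte, ependymal, DNA repair, Bcl2 and Wnt lists, all near 0, and of the astrocyte (0.084), granulocyte (0.26) and cilium (-0.13) lists with the stricter filter and the GABAergic list (0.36 with NEP tumor arrays 3 and 4 only). The 3 CD133+ Lin- arrays limit every comparison.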
